A study of Homo sapiens with 4 samples.

Results

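Interferon-stimulated genes were examined in GATA1 knockdown clones of Meg-01, an established human megakaryoblastic leukemia cell line, as a possible response to the shRNA vector. The members were 45 listed genes, and all non-control probes that carry one of these names on the array were used. Of these, 43 genes were found on 76 probes, among 30484 gene names on 40974 probes in all. The remaining members, IRF9 and XAF1, are on the array under the older names ISGF3G and BIRC4BP and were kept apart.

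RNA from the clones GATA1 5-13 and GATA1 4-14, each made with lentiviral GATA1 shRNA, selected with puromycin and grown from a single colony, was hybridized against control RNA. The control, GATA1 Neg, was a pool of infected Meg-01 cells whose lentivirus carried a negative control shRNA. All cells were cultured in the same medium with fetal bovine serum, and the labels' extraction text names CMK, another megakaryoblastic line, where every other label names Meg01. Each clone was measured on 2 two-colour arrays with the dyes swapped, and all 4 arrays lay on 1 slide. Both sides of every array carried an shRNA vector, so a response shared by the clones and GATA1 Neg cancels in the ratio, and cells without a vector were not on the arrays. The 2 arrays of a clone count as 1 replicate, which leaves n = 2 clones, and how GATA1 Neg varies was not measured. A clone alone has no test, and its values describe that clone.

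Type I interferons signal through the receptor chains IFNAR1 and IFNAR2 and the kinases JAK1 and TYK2. These activate a factor that holds STAT2 and IRF9 and binds the interferon-stimulated response element in the promoters of the stimulated genes. The products sense viral RNA, block its translation or degrade it, conjugate the ubiquitin-like protein ISG15, and load peptides on class I molecules. Foreign nucleic acid, including some shRNA vectors, is a known trigger of this program.

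Between 61.6% and 66.4% of the spots of an array were well above background in the clone RNA, and between 61.9% and 65.8% in GATA1 Neg RNA. GATA1 itself (probe A_24_P374244) had a log2 ratio of -0.21 and of -0.34 in GATA1 5-13, and of -0.43 and of -0.58 in GATA1 4-14. Of the megakaryocytic marker genes, ITGA2B, ITGB3, GP9 and GP1BA were well above background, and PF4 and VWF were not. Of 4 monocyte or macrophage markers, CSF1R and CD163 were not well above background, CD14 was near it, and LYZ had log2 ratios of -0.63 and -0.76 in GATA1 5-13 and of 0.43 and 0.27 in GATA1 4-14. Its part in the values of the members was not tested.

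The core of the response element, GAAANNGAAA, was searched on both strands of the promoters that RefSeq lists on GRCh38.p14, each running from 250 bases before to 50 bases after a transcription start (300 bases). Of the 43 members, 33 had a promoter in that table. The letters were found in 21 of the 33 members (63.6%), and in 4.38% of the 27305 genes in the table. Letters bound by factors such as GATA1, here AGATAA, were found in 5 of the 33 members (15.2%) and in 12.4% of all genes. Stretches upstream of the start are shown for the members that hold the letters there and have a probe past 1.5-fold with the same sign on both arrays of a clone and well above background, written on the strand of the gene, with the match of either strand in capitals:
IFIT1: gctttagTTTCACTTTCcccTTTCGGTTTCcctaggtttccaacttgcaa
IFIT3: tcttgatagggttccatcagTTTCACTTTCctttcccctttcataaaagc
IFIT5: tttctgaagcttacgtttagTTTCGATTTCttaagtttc
RSAD2: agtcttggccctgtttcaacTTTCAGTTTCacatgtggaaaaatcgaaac
OAS3: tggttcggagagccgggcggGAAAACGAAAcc
TAP1: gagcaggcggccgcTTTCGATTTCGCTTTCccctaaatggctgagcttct
BST2: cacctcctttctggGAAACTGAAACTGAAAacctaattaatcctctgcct

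The stretches lie at chr10:89392500-89392549 (plus strand) for IFIT1, chr10:89332458-89332507 (plus) for IFIT3, chr10:89414529-89414567 (plus) for IFIT5 and chr2:6877612-6877661 (plus) for RSAD2. Those of OAS3, TAP1 and BST2 lie at chr12:112938442-112938473 (plus), chr6:32853803-32853852 (minus) and chr19:17405725-17405774 (minus). IFIT1, TAP1 and BST2 each held 2 matches in the stretch shown, which overlap in TAP1 and BST2. No match was found in these windows for OAS1, HERC6 and IFI16, and IFIT2 and OASL were not in the table. A match describes the letters and does not show a bound site.

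The members lay on different sides of GATA1 Neg in the clones. In GATA1 5-13, 32 of 43 members (74.4%) had a log2 ratio above 0, against 49.4% of all gene names. In GATA1 4-14, 15 of 43 (34.9%) did, against 50.4%. The median over the members was 0.10 in GATA1 5-13 and -0.04 in GATA1 4-14, where the medians of all gene names were 0.00. In RNA from a whole culture, more cells with a transcript and more transcript per cell cannot be told apart.

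Past 1.5-fold with the same sign on both arrays, GATA1 5-13 had 8 members higher (18.6%; 1.62% of all gene names) and 2 lower (4.65%; 2.38%). Among genes with a probe well above background, 2.6% of all gene names were higher and 3.87% lower in this clone by the same rule, and all 10 members belonged to them. GATA1 4-14 had 0 members higher (0.902% of all gene names) and 1 lower (0.866%). XAF1, kept apart under its older name, is not in this count. By the measured ratio, each of its probes was past 1.5-fold higher in GATA1 4-14. GATA1 Neg was not well above background for them, and as a lower bound probe A_23_P4286 was at least 1.38-fold higher. The 8 higher members of GATA1 5-13 were IFIT1, RSAD2, IFIT2, OASL, OAS1, IFIT3, TAP1 and OAS3, and the 2 lower ones were IFI16 and BST2. IFIT1 was the lower one of GATA1 4-14, at -0.59 against a threshold of -0.58, and the mean of the IFIT2 probes lay at -0.58 just inside it. In GATA1 5-13 the nearest members to the threshold were OAS3 at 0.61 outside it and PSMB9 at 0.56 inside it.

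**Figure D1:**
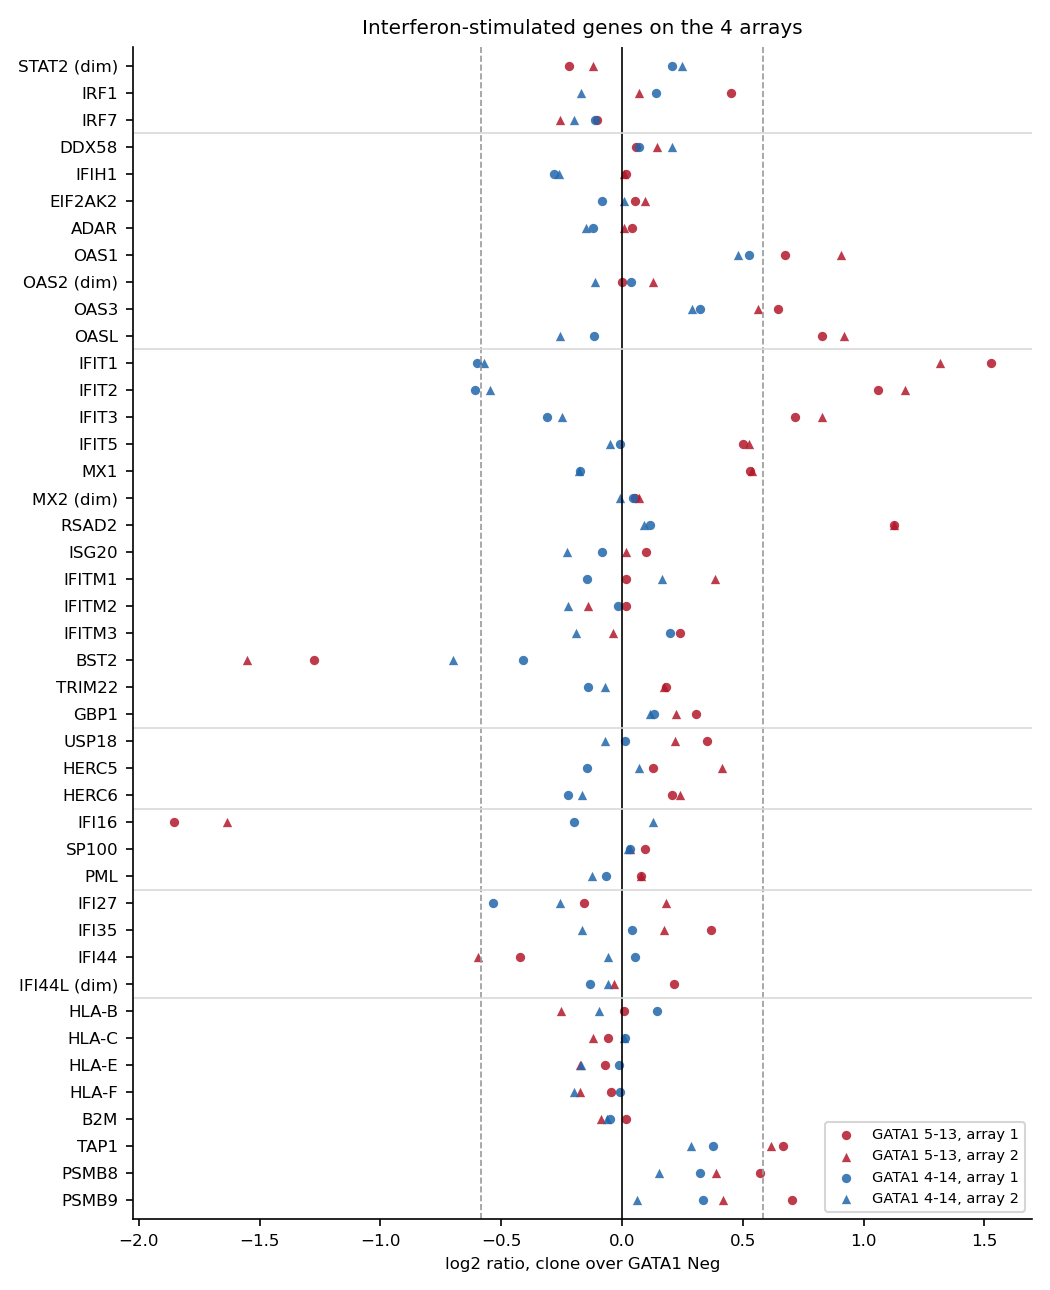
Log2 ratio of clone over GATA1 Neg (x axis) of each of the 43 interferon-stimulated genes, averaged over its probes, on the 2 arrays of GATA1 5-13 (red) and of GATA1 4-14 (blue); dashed lines mark 1.5-fold, grey lines separate functional groups, and genes with no probe well above background are marked as dim. IFIT1 lies between 1.32 and 1.53 in GATA1 5-13 and at -0.57 and -0.60 in GATA1 4-14, and BST2 lies below 0 on all 4 arrays.

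Members were higher in both clones in 12 cases (27.9%), beside 28% of all gene names, and lower in both in 8, beside 28.3%. By the clone means, a further 20 members were higher in GATA1 5-13 and lower in GATA1 4-14, beside 6509 of all 30484 gene names. For 3 members it was the reverse, beside 6811 of all gene names. By gene means on all 4 arrays, 12 members (27.9%) were higher in GATA1 5-13 and lower in GATA1 4-14, against 8.04% of all gene names. The reverse held for 2 members (4.65%), against 8.08%. Single probes of IFIT5, ADAR, PML and HLA-C did not share the signs of their gene means. Among genes with a probe well above background, the share was 12 of 39 members (30.8%) against 9.57% of 18745 gene names for the first pattern, and 1 of 39 (2.56%) against 9.91% for the second. The difference between the clones was not tested, since each clone is 1 replicate.

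**Figure D2:**
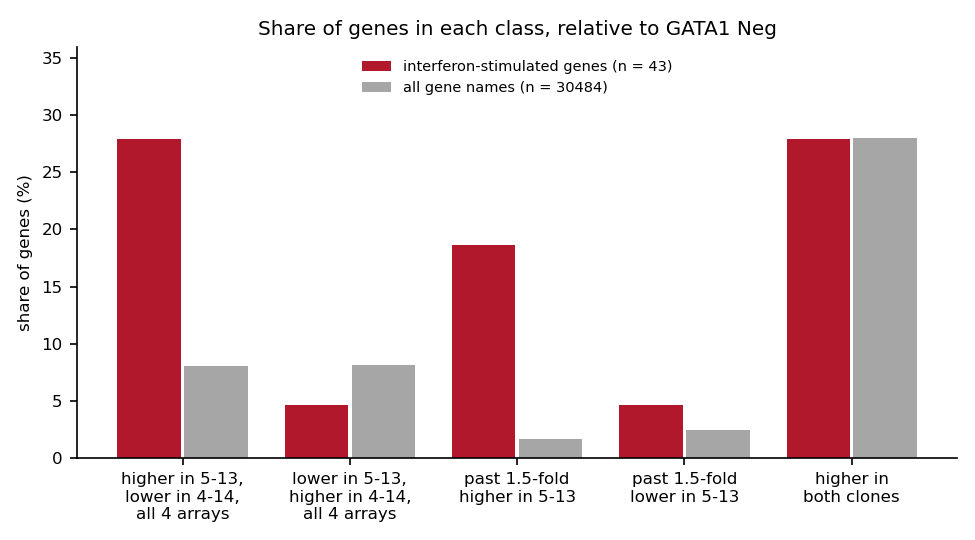
Share of genes (y axis, percent) in 5 classes of log2 ratio relative to GATA1 Neg, for the 43 interferon-stimulated genes (red) and for all 30484 gene names (grey). The members' share is 27.9% against 8.04% for genes higher in GATA1 5-13 and lower in GATA1 4-14 on all 4 arrays, and 27.9% against 28% for genes higher in both clones.

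The test of the mean of both clones (limma, two-sided, Benjamini-Hochberg adjustment over 40974 probes) called 0 of 76 member probes, as it called 0% of all probes. The smallest adjusted p of a member probe was 0.56, for OAS1. At the unadjusted p of 0.005 that the study used, limma called 0 of 76 member probes, against 0.901% of all probes. At an unadjusted p under 0.05, 8 member probes were higher (3.39% of all probes) and 2 were lower (4.05% of all probes). The 8 belonged to OAS1, OAS3 (2 probes), TAP1, PSMB8, PSMB9, GBP1 and SP100, and the 2 to IRF7 and BST2.

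The IFIT genes encode proteins with tetratricopeptide repeats that bind viral RNA and block its translation, and they lie beside each other on chromosome 10. IFIT1 (probe A_23_P52266, chr10:91153418-91153477 of hg18, the build of all probe positions) gave 1.53 and 1.32 as log2 ratios in GATA1 5-13, 2.68-fold higher than GATA1 Neg, and -0.60 and -0.57 in GATA1 4-14. The mean was 0.42 ± 1.42 (SD, n = 2 clones), with an adjusted p of 0.89 from limma. The arrays of one clone lay close to each other and far from those of the other, so that the mean described neither clone.

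IFIT2 had log2 ratios of 1.30 and 1.17 in GATA1 5-13 and of -0.53 and -0.67 in GATA1 4-14 with probe A_23_P24004. Its other probe, A_24_P304071, gave 0.82 and 1.17, and -0.68 and -0.42. For IFIT3 the values were 0.72 and 0.83 in GATA1 5-13, 1.71-fold higher, and -0.31 and -0.25 in GATA1 4-14. These genes shared the pattern of IFIT1, with no overlap between the arrays of the clones.

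The probes of IFIT5 differed in GATA1 4-14. Probe A_24_P30194 had log2 ratios of 0.67 and 0.61 in GATA1 5-13 and of 0.14 and 0.04 in GATA1 4-14, while A_23_P63668 had 0.33 and 0.44 in GATA1 5-13 and -0.15 and -0.14 in GATA1 4-14. Both probes were higher in GATA1 5-13 on each array. The 45 to 47 other probes within 2 Mb of the IFIT genes lay at a median of 0.02 to 0.03 in GATA1 5-13 and of 0.02 in GATA1 4-14 on the log2 scale.

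MX1, a GTPase that traps viral nucleocapsids, had log2 ratios of 0.53 and 0.54 in GATA1 5-13 and of -0.17 and -0.18 in GATA1 4-14. OASL, a member of the oligoadenylate synthetase family without the synthetase activity, had 0.83 and 0.92, 1.83-fold higher, and -0.11 and -0.26. HERC6, related to the ISG15 ligase HERC5, had 0.27 and 0.27 with probe A_23_P250353 in GATA1 5-13, and -0.18 and -0.26 in GATA1 4-14. Every array of GATA1 5-13 lay above 0 and every array of GATA1 4-14 below 0 for these genes.

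The same signs at smaller size were found for the RNA sensor IFIH1 (0.01 in GATA1 5-13 and -0.27 in GATA1 4-14), the RNA-editing enzyme ADAR (0.02 and -0.13), the exonuclease ISG20 (0.06 and -0.15), TRIM22 (0.18 and -0.11) and PML, the scaffold of nuclear bodies (0.08 and -0.09). STAT2 and HLA-C made up the reverse pattern, with log2 ratios of -0.17 and 0.23, and of -0.09 and 0.01. On none of the arrays was the STAT2 probe well above background in GATA1 Neg. These values are gene means, and single probes of ADAR, PML and HLA-C had other signs.

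**Figure D3:**
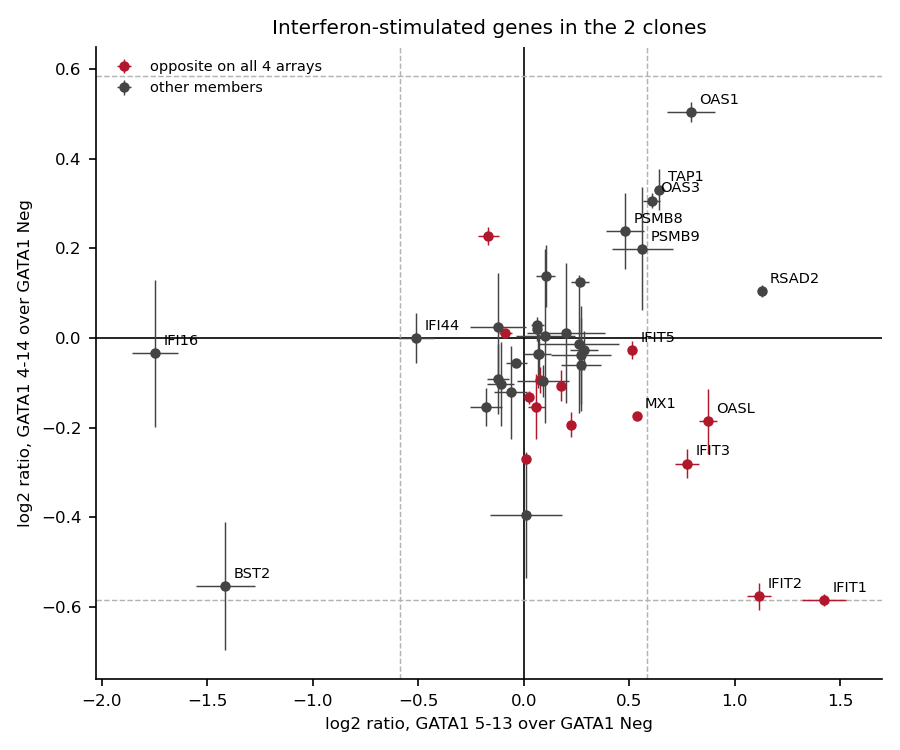
Mean log2 ratio of each member gene in GATA1 4-14 (y axis) against GATA1 5-13 (x axis), both over GATA1 Neg; bars run between the 2 arrays of a clone, dashed lines mark 1.5-fold, and red points are genes with opposite signs in the clones on all 4 arrays. IFIT1, at 1.42 in GATA1 5-13 and -0.59 in GATA1 4-14, is farthest to the lower right, OAS1 is farthest up at 0.79 and 0.50, and IFI16 is farthest left at -1.75 and -0.03.

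Members higher in both clones made up 27.9%, beside 28% of all gene names. Those with the largest values were higher by more in GATA1 5-13. DDX58 had its higher value in GATA1 4-14 (0.10 in GATA1 5-13 and 0.14 in GATA1 4-14). OAS1, which makes oligoadenylates that activate RNase L, had log2 ratios of 0.68 and 0.91 in GATA1 5-13, 1.73-fold higher, and of 0.53 and 0.48 in GATA1 4-14, 1.42-fold higher. The mean was 0.65 ± 0.20 (SD, n = 2 clones), above 0 on 4 of 4 arrays, and limma gave an adjusted p of 0.56. OAS3, of the same family, had 0.68 and 0.63, and 0.33 and 0.37, with probe A_23_P47955, and 0.62 and 0.50, and 0.31 and 0.21, with A_24_P335305. OAS2, which lies beside them on chromosome 12, was not well above background, and its log2 ratios were 0.07 in GATA1 5-13 and -0.04 in GATA1 4-14.

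Genes for the processing and transport of peptides had values like these. TAP1, a subunit of the peptide transporter, had log2 ratios of 0.67 and 0.62 in GATA1 5-13 and of 0.38 and 0.29 in GATA1 4-14, with a mean of 0.49 ± 0.22 (SD, n = 2 clones) and an adjusted p of 0.60 from limma. PSMB8, a subunit of the immunoproteasome, had 0.57 and 0.39, and 0.32 and 0.15. PSMB9, another such subunit encoded next to TAP1, had 0.71 and 0.42, and 0.34 and 0.06. TAP1, PSMB8 and PSMB9, which lie near each other on chromosome 6, were above 0 on every array. The arrays hold n = 2 clones against the same control RNA.

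The class I molecules that present the peptides did not share these values. HLA-B, HLA-C, HLA-E, HLA-F and B2M, the light chain common to all of them, lay between -0.12 and -0.03 in GATA1 5-13, and between -0.10 and 0.02 in GATA1 4-14. HLA-B and HLA-C are near-identical in sequence, and 2 HLA-C probes have the coordinates of HLA-B, so these genes cannot be told apart with certainty. Probes of B2M, HLA-B, HLA-C and IFI27 are printed 10 times on each array, and their spots had an SD of 0.017 to 0.086 on the log2 scale.

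RSAD2, the enzyme viperin, was high in GATA1 5-13 and near GATA1 Neg in the other clone. Its log2 ratios were 1.14 and 1.15, 2.21-fold higher, in GATA1 5-13 and 0.14 and 0.09 in GATA1 4-14 with probe A_24_P28722. With A_24_P316965 they were 1.12 and 1.10, and 0.09 and 0.09. The mean of the first probe was 0.63 ± 0.73 (SD, n = 2 clones), with an adjusted p of 0.71 from limma.

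BST2 and IFI16 had low values. BST2, the membrane protein tetherin, which holds budding virus at the cell surface, had log2 ratios of -1.28 and -1.55 in GATA1 5-13, 2.67-fold lower than GATA1 Neg, and of -0.41 and -0.70 in GATA1 4-14, 1.47-fold lower. The mean was -0.98 ± 0.61 (SD, n = 2 clones), below 0 on 4 of 4 arrays, and limma gave an adjusted p of 0.63. BST2 had the opposite sign to TAP1 and OAS3 in both clones. The core letters were found in the promoter windows of each of these genes, and a link between the letters and these values was not tested.

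IFI16, a nuclear DNA sensor, had log2 ratios of -1.76 and -1.69 in GATA1 5-13 with probe A_23_P160025, 3.30-fold lower, and of -1.96 and -1.59 with A_23_P217866. In GATA1 4-14 the values were -0.10 and 0.06, and -0.30 and 0.20, on either side of 0. Both values below 0 came from the array with the clone RNA in Alexa647. The 113 other probes within 2 Mb of IFI16 had medians of -0.03 in both clones.

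On the short arm of chromosome 1, other probes near the members had low values in GATA1 5-13. The 32 other probes within 2 Mb of IFI44 and IFI44L lay at a median of -0.16 in GATA1 5-13 and of 0.00 in GATA1 4-14 on the log2 scale. IFI44 itself had -0.42 and -0.59 in GATA1 5-13, and 0.06 and -0.06 in GATA1 4-14. The 40 other probes within 2 Mb of GBP1, an interferon-induced GTPase, had medians of -0.36 and 0.01, while GBP1 itself lay at 0.27 and 0.12. The part of this region in the values of IFI44 was not tested.

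The other members had smaller or mixed values. IRF7, a regulator of interferon genes, had -0.39 and -0.42, and -0.21 and -0.25, with probe A_24_P378019, the only probe of IRF7 that was well above background. IFI27 lay at 0.01 in GATA1 5-13 and at -0.40 in GATA1 4-14. The transcription factor IRF1 (0.26 and -0.01), the ISG15 protease USP18 (0.29 and -0.03), HERC5 (0.27 and -0.04) and IFI35 (0.27 and -0.06) were above 0 in GATA1 5-13 alone by their means, and the arrays of all 4 genes in GATA1 4-14 lay on either side of 0. The RNA sensor DDX58 (0.10 and 0.14), the kinase EIF2AK2 (0.07 and -0.04), SP100 (0.06 and 0.03), IFITM1 (0.20 and 0.01), IFITM2 (-0.06 and -0.12) and IFITM3 (0.10 and 0.00) lay between -0.12 and 0.20. MX2 (0.06 and 0.02) and IFI44L (0.09 and -0.10) had no probe well above background on both arrays of a clone.

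By role, all 8 RNA sensors and double-stranded RNA enzymes and all 3 genes of ISG15 conjugation were above 0 in GATA1 5-13, as were 12 of 14 antiviral effectors. In GATA1 4-14 the counts were 3 of 8, 0 of 3 and 5 of 14. In antigen presentation 3 of 8 genes were above 0 in GATA1 5-13 and 5 of 8 in GATA1 4-14. Of the 21 members with the response element letters, 17 were above 0 in GATA1 5-13 and 7 in GATA1 4-14, and of the 12 members without them, 8 and 7. Of the 10 members with no promoter listed, IFIT2 and OASL among them, 7 and 1 were above 0. Over all gene names the shares above 0 were 49.4% in GATA1 5-13 and 50.4% in GATA1 4-14. A link between the letters and the values was not tested.

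Of 85 further genes of the interferon pathway on the array, on 130 probes, limma called 0 after adjustment, as it called 0% of all probes. Beside 0.901% of all probes at an unadjusted p of 0.005, it called 1 of these 130 probes. This was IFNAR2, a chain of the type I receptor, with log2 ratios of -0.62 and -0.64 in GATA1 5-13 and of -0.60 and -0.62 in GATA1 4-14. Its mean was -0.62 ± 0.01 (SD, n = 2 clones), below 0 on 4 of 4 arrays, and limma gave an adjusted p of 0.44. The 4 array values lay within 0.04 of each other. All of them share the GATA1 Neg control, whose own variation was not measured and is not part of this SD.

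The other chain, IFNAR1, had -0.42 and -0.10, and -0.42 and -0.17, also below 0 on every array. IFNGR2, a chain of the interferon gamma receptor that lies beside them on chromosome 21, had 0.17 and 0.17 in GATA1 5-13 and -0.90 and -0.94 in GATA1 4-14. The 89 other probes within 2 Mb of IFNAR2 had medians of -0.11 in GATA1 5-13 and -0.14 in GATA1 4-14, and the whole of chromosome 21 had -0.05 and -0.08. JAK1, a kinase of these receptors, had -0.68 in GATA1 5-13 and -0.26 in GATA1 4-14 by the mean of its 2 probes, below 0 on every array. It lies on the short arm of chromosome 1, where probes near IFI44 and GBP1 had low medians in GATA1 5-13. The part of this region in the values of JAK1 was not tested. TMEM173, the adaptor STING, had -0.58 and -0.68 in GATA1 5-13 and -0.01 and -0.01 in GATA1 4-14.

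Of 16 interferon genes on the array, none had a probe well above background in the same RNA on both arrays of a clone. IFNB1, interferon beta, was well above background in GATA1 5-13 RNA on 1 of 2 arrays and in GATA1 Neg on none, with log2 ratios of 0.48 and 0.57. Since both RNAs were near background on the other array, no lower bound is given for its fold. In GATA1 4-14 IFNB1 was not well above background in either RNA. For folds given elsewhere as at least a value, the dim side was set at its measured signal on each array. The lowest signal that counts as well above background was used instead where it was larger.

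**Figure D4:**
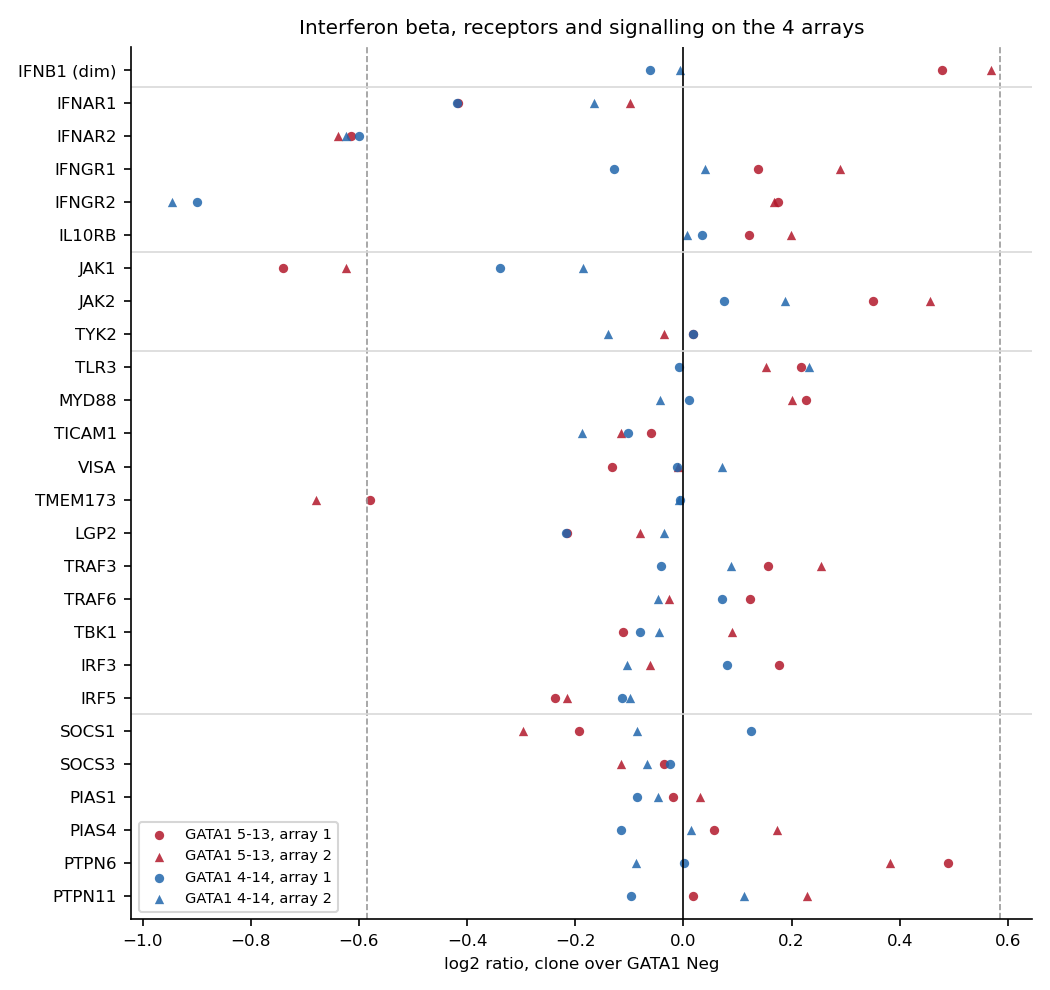
Log2 ratio of clone over GATA1 Neg (x axis) of interferon beta and of selected receptor, kinase, sensor and regulator genes. The selected genes have a probe well above background. Points are the 2 arrays of GATA1 5-13 (red) and of GATA1 4-14 (blue), and dashed lines mark 1.5-fold. The 4 points of IFNAR2 lie together between -0.64 and -0.60, while IFNGR2 lies at 0.17 in GATA1 5-13 and near -0.92 in GATA1 4-14.

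ISG15, the ubiquitin-like protein that is itself stimulated by interferon, lay at 0.20 in GATA1 5-13 and at -0.01 in GATA1 4-14. Of 38 further stimulated genes, 29 were above 0 in GATA1 5-13 and 10 in GATA1 4-14, with medians of 0.11 and -0.04. Of all gene names, 49.4% and 50.4% were above 0. The chemokine CXCL10 had 0.70 and 0.77 in GATA1 5-13, at least 1.63-fold higher since GATA1 Neg was not well above background, and was not well above background in either RNA in GATA1 4-14. CXCL11 had 0.85 in GATA1 5-13 and -0.42 in GATA1 4-14 by the mean of its 2 probes, neither of which was well above background in GATA1 4-14 RNA. PARP9, an antiviral ADP-ribosyltransferase, had 0.74 and 0.65, and 0.08 and -0.02.

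The guanylate-binding proteins GBP4 and GBP5 departed from this pattern, with the higher values in GATA1 4-14. GBP5 had log2 ratios of 0.55 and 0.68 in GATA1 5-13, 1.53-fold higher, and of 2.83 and 2.88 in GATA1 4-14, 7.22-fold higher. GBP4 lay at 0.86 in GATA1 5-13 and at 1.47 in GATA1 4-14 by the mean of its 2 probes, with adjusted p of 0.56 for both probes from limma. Both genes were higher than GATA1 Neg on all 4 arrays, while the 34 other probes within 2 Mb had medians of -0.33 and 0.01.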

How the data were processed

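Scanner files of 4 two-colour arrays were made with Agilent Feature Extraction 9.5.3.1, and their probe positions are on hg18. They hold, as deposited, the intensity of each spot and of its local background in both channels, uncorrected. The deposited log10 ratios came from the same program after it had subtracted background and normalized the dyes, and the authors' series-wide log10 values equal them after being turned to clone over control. Here log2 ratios were made from the intensities in R 4.3.3 with limma 3.58.1 (normexp with an offset of 50, loess within each array); control and outlier spots (135 to 152 of 43376) were left out, and 0 spots were saturated. The offset makes folds of dim probes smaller. Spots of a probe, then the dye-swapped arrays of a clone, were averaged, and for gene counts the probes of a gene. The mean of 2 clones was tested with limma against 0 (adjusted p threshold 0.05). The number of arrays limits the precision.

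The members, the pathway and marker lists and the rule for naming genes were chosen with earlier results of these data known. Array values were given for genes with an unadjusted p of at most 0.005, past 1.5-fold with the same sign on both arrays of a clone and well above background, or opposite in the clones by at least 0.2, and for other members with clone means or a range. MX1, PSMB8, PSMB9, IFI44 and IRF7 were given array values after their ratios were seen. The test was tried on simulated data. Promoter letters were searched with Python 3.11.15. Some genes of the pathway and marker lists are not reported here by name.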

Additional observations from a re-analysis of the deposited data

Results flagged for a closer look

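By the mean of each gene's probes, the clones lay on opposite sides of GATA1 Neg on all 4 arrays for 14 members. Single probes of IFIT5, ADAR, PML and HLA-C did not share these signs, and IFIH1 lay at 0.02 and 0.01 in GATA1 5-13. The difference between the clones was not tested because each clone is 1 replicate. As log2 ratio of GATA1 5-13 minus that of GATA1 4-14, it was 2.01 for IFIT1, 1.69 for IFIT2, 1.06 for OASL, 1.05 for IFIT3, 0.71 for MX1, 0.54 for IFIT5, 0.42 for HERC6, 0.28 for IFIH1, 0.28 for TRIM22, 0.21 for ISG20, 0.17 for PML and 0.16 for ADAR. It was -0.40 for STAT2, whose probe was near background, and -0.10 for HLA-C.

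XAF1, which binds the apoptosis inhibitor XIAP and carries the older name BIRC4BP on the array, gave a signal outside the counts of the members. Its 3 probes were not well above background in GATA1 Neg or in GATA1 5-13 on any array, and were so on both arrays of GATA1 4-14. GATA1 4-14 was at least 3.23-fold higher than GATA1 Neg with probe A_24_P557479, at least 1.89-fold with A_23_P4283 and at least 1.38-fold with A_23_P4286.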

How the results depend on the processing

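No alternative called a member probe after adjustment except those that take arrays or spots as the unit. With 4 arrays as 4 values and no replicate block, 4 member probes (OAS1, OAS3, TAP1, IRF7) passed, 8 reached an unadjusted p of 0.005, and 13 higher and 4 lower ones were under 0.05. With the replicate block, which holds the dye orientation, 0 passed, 4 had a p of at most 0.005 and 6 lower ones were under 0.05. Arrays of the same number deviated together (r = 0.77 across probes). With an error-weighted mean, 15 passed, 15 had a p of at most 0.005, and 16 higher and 6 lower ones were under 0.05. These fits treat the 2 arrays of the same clone as separate, and they called 3.03%, 0.657% and 8.34% of all probes. The labels do not say whether the 2 arrays of a clone used separate RNA extracts. With an intensity trend, 1 member probe had a p of at most 0.005.

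For GATA1 5-13 the median of the members was 0.074 without background correction, 0.21 with Feature Extraction or series-wide log ratios, and 0.18 with dim probes left out or with only probes well above background. Without background correction, 5 members were past 1.5-fold higher in GATA1 5-13 and 0 lower in GATA1 4-14, and 3 higher and 6 lower member probes had a p under 0.05. Aquantile between arrays, outlier spots kept and median centring moved none of the planned counts by over 1.5 times. With Feature Extraction or series-wide log ratios, 1 member was past 1.5-fold higher and 3 lower in GATA1 4-14, and 3 higher and 4 lower member probes had a p under 0.05.

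The count of members higher in GATA1 5-13 and lower in GATA1 4-14 on all arrays, whose alternatives were chosen after seeing the data, lay between 10 and 13 with all arrays, except for 6 of 43 with median centring in place of loess, where the share of all gene names was 1.81%. With 1 array left out it lay between 13 and 17, and the share of all gene names between 11.4% and 14.1%. Fewer arrays ask for fewer signs, so this count could not fall below that of all arrays. Leaving out 1 array gave medians of 0.10 to 0.13 in GATA1 5-13 and of -0.07 to -0.01 in GATA1 4-14. Past 1.5-fold it gave 7 to 9 members higher and 2 to 3 lower in GATA1 5-13, and 0 higher and 1 to 2 lower in GATA1 4-14. Higher in both clones were 11 to 15, lower in both 7 to 9, higher in GATA1 5-13 alone 17 to 21 and higher in GATA1 4-14 alone 2 to 4. Member probes with a p of at most 0.005 numbered 0 to 1, and 5 to 8 higher and 2 to 3 lower ones had a p under 0.05. With 1 array of GATA1 4-14 left out, the IFI16 probes ranged from -0.10 to 0.062 and from -0.30 to 0.20 in that clone, above 0 without its first array.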

Other observations

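IRF9, which joins STAT2 in the factor that binds the response element, is on the array as ISGF3G. Its log2 ratios were 0.05 in GATA1 5-13 and -0.11 in GATA1 4-14 with probe A_23_P354547, and 0.07 and -0.35 with A_23_P65442. Both probes were above 0 in GATA1 5-13 and below 0 in GATA1 4-14 by the means of the arrays.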
